A study of Mus musculus with 36 samples.

Results

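The genes described here are 9 chromatin regulators of the mouse, 9 of the 21699 genes in the count table of each embryonic stage. Kdm3a, Ehmt1 and Ehmt2 act on methylated lysine 9 of histone H3 (H3K9). Ezh2, Eed, Suz12, Cbx2, Cbx8 and Bmi1 are subunits of the Polycomb repressive complexes. The members were taken by gene symbol from the tables of the embryonic stages E11.5 and E12.5, named by days after mating, and all 9 passed the filter on low counts at both stages. Each stage held 3 bulk RNA-seq libraries of each of 4 genotypes, which were the control and the KO of either sex. KO embryos were homozygous for the deletion (miR-17~92 del/del), which the transgene Tg(CAG-cre)1Nagy, a Cre under the ubiquitous CAG promoter, made from a floxed allele on a C57BL/6 × 129S4/SvJae background. The labels call the control embryos wild type. Each replicate pooled 2 pairs of gonads. At E11.5 the RNA was from the gonad together with the mesonephros (the embryonic kidney beside it) and at E12.5 from the gonad alone, with a different stranded kit at each stage, so the stages were not tested against each other.

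The gonad of the mouse embryo can become a testis or an ovary, and in XY embryos the Y-linked gene Sry starts testis development by raising Sox9 in the precursors of Sertoli cells. Methylated H3K9 at the Sry locus keeps the gene silent. Kdm3a encodes an H3K9 demethylase that removes this mark from Sry, and the paired methyltransferases Ehmt1 and Ehmt2 (GLP and G9a) place it. Polycomb repressive complex 2 (PRC2) methylates lysine 27 of histone H3 through its catalytic subunit Ezh2, with Eed and Suz12 as core partners. Polycomb repressive complex 1 (PRC1) reads that mark through Cbx proteins such as Cbx2 and Cbx8 and holds Bmi1 (Pcgf4) as a partner of its ubiquitin ligase. Loss of Cbx2 is known to cause male-to-female sex reversal in mice.

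The 6 mature microRNAs of the deleted cluster are shown because each can be compared with the 3′ UTRs of the members. They lie on the plus strand of chromosome 14 (RefSeq, GRCm38.p6), and all 6 were found there. Capitals mark the seed, bases 2 to 8, and the sequences fall into 4 seed families.
mmu-miR-17-5p: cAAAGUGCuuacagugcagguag
mmu-miR-20a-5p: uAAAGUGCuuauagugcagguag
mmu-miR-18a-5p: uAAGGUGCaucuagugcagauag
mmu-miR-19a-3p: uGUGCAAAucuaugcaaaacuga
mmu-miR-19b-3p: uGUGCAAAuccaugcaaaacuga
mmu-miR-92a-3p: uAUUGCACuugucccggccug
The first pair shares the miR-17 seed, the miR-19 pair shares another, and miR-18a and miR-92a each have their own.

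A match to a seed (GCACTTT for miR-17, GCACCTT for miR-18, TTTGCAC for miR-19, GTGCAAT for miR-92, on the transcript's strand) was found in the longest annotated 3′ UTR of 3 of the 9 members. Suz12 held 2 matches for miR-19 in a 3′ UTR of 1933 bases, Ehmt1 held 1 for miR-17 and 1 for miR-18 in 2022 bases, and Cbx8 held 1 for miR-17 in 2372 bases. Each window is given 5′ to 3′ on the gene's strand in GRCm38, with the match in capitals.
Suz12, miR-19, plus strand, chr11:80032932-80032953: gcacgtctTTTGCACtaggatg
Suz12, miR-19, plus strand, chr11:80033794-80033815: tagcattgTTTGCACaaaaaat
Ehmt1, miR-17, minus strand, chr2:24791689-24791710: gtgctgcaGCACTTTccacgtc
Ehmt1, miR-18, minus strand, chr2:24791313-24791334: tgacgcagGCACCTTtggttga
Cbx8, miR-17, minus strand, chr11:119037947-119037968: aggagggtGCACTTTatggagg
No member held a match to miR-92. Of 20982 genes with an annotated 3′ UTR, 28.9% held a match to at least 1 of the 4 seeds. Among genes whose 3′ UTR was within 20% of Suz12 in length, 39.9% held a match to any seed and 14.4% one to miR-19. The 3′ UTRs of Kdm3a, Ehmt2, Ezh2, Eed, Cbx2 and Bmi1 held no match; 44.3% of genes of Bmi1's 3′ UTR length and 18.7% of those of Kdm3a's held any. A match is a string of letters and no evidence of binding.

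Total counts were 17150620 to 34077443 per library at E11.5 and 11877379 to 44155275 at E12.5, and 14217 and 14348 genes were tested. Uty, on the Y chromosome, was at 44.1 CPM or more in every library labelled XY and at 0.15 CPM or less in every library labelled XX, so the sexes matched the labels. The host transcript of the cluster, Mir17hg, was higher in KO libraries, at 66.7 to 154.2 CPM against 13.4 to 44.6 CPM in controls over both stages. These libraries of messenger RNA do not measure the mature microRNAs, so this value is no check of the deletion. The paper checked the deletion by the position of reads along this locus, and found none within the cluster in KO gonads. Levels below are CPM (counts scaled to a common library total after TMM normalization), as mean ± SD of 3 libraries. Differences are log2 fold changes from edgeR's quasi-likelihood test, and a gene was called at a Benjamini-Hochberg adjusted p (FDR) under 0.05 over all genes tested. The sources do not say whether replicates came from separate litters, so it is not known whether the spread includes that between litters.

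At E11.5, Suz12 and Bmi1 were higher in XY KO than in XY control complexes, by 1.40-fold and 1.35-fold, and no other member was called. The libraries of the genotypes did not overlap for these 2 members and for 28.5% of all genes. Called genes made up 12.7% of all tested genes in this comparison, and 2 of the 9 members. The other 7 members had log2 fold changes between −0.086 and 0.077, and the median over all 9 was 0.014, beside −0.025 over all genes tested. In XX KO against XX control complexes none of the 9 was called, against 3.27% of all genes.

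Suz12 (chr11:79993106-80034123, plus strand) encodes the subunit that holds PRC2 together. At E11.5 its 3 XY control libraries were at 131.4, 137.1 and 122.3 CPM and its XY KO libraries at 196.7, 177.9 and 171.8 CPM. XX control libraries were at 150.1, 150.1 and 169.8 CPM, and XX KO libraries at 184.0, 196.1 and 170.4 CPM. XY control was thus the lowest genotype with no overlap with any other, and the KO libraries of the sexes lay over each other. The mean rose from 130.3 ± 7.49 to 182.2 ± 13 CPM in XY complexes, a log2 fold change of 0.48 (SE 0.091, edgeR FDR = 0.00386, higher in 3 of 3 libraries). In XX complexes the difference was 0.23 (SE 0.091, edgeR FDR = 0.222). XX KO libraries lay just above XX control ones there, as the libraries of 24.6% of all tested genes did not overlap in that comparison.

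Whether the KO effect on Suz12 differed between the sexes was tested as an interaction, and the difference was 0.26 (SE 0.13, edgeR FDR = 0.420). XX and XY controls differed by 0.27 (SE 0.091, edgeR FDR = 0.166), with no overlap of libraries, against 0.886% of genes called and 17.4% of genes not overlapping. Without XY control replicate 2 this difference was called, at 0.30 (edgeR FDR = 0.0435), in a fit that called 2495 genes instead of 126. Suz12 was the member with a pair of miR-19 matches shown above. Of its exonic bases, 3.6% are shared with Gm26563 on the other strand, and the strand setting of the counting is not stated.

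Bmi1 (chr2:18677018-18686629, plus strand), a PRC1 subunit known for holding the Cdkn2a locus silent, stood highest at E11.5 in XY KO complexes. Its XY KO libraries were at 100.5, 104.0 and 101.1 CPM, and its XY control libraries at 69.9, 77.5 and 78.9 CPM. XX control libraries were at 78.3, 86.0 and 79.0 CPM and XX KO libraries at 84.9, 82.8 and 77.2 CPM. The 9 libraries outside XY KO overlapped across genotypes, and the 3 XY KO libraries lay above all of them. The means were 101.9 ± 1.9 CPM in XY KO and 75.4 ± 4.8 CPM in XY control, a log2 fold change of 0.43 (SE 0.081, edgeR FDR = 0.00373, higher in 3 of 3 libraries), beside 0.01 (SE 0.081, edgeR FDR = 0.987) in XX complexes.

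The difference between these KO effects on Bmi1 was 0.43 (SE 0.11) and was not called by edgeR (FDR = 0.203), which called 0.0352% of genes for the interaction. DESeq2 called it (FDR = 0.0353), in a test that called 1.17% of genes. XX KO was lower than XY KO by −0.32 (SE 0.081), with an edgeR FDR of 0.155 and a DESeq2 FDR of 0.0188. In that comparison edgeR called 0.0844% of genes and DESeq2 2.31%. Without XY control replicate 2 edgeR called 228 genes instead of 5 for the interaction and 202 instead of 12 between the KO genotypes, and still 0 of 9 members. The libraries of these genotypes did not overlap for Bmi1 and for 24.5% of all genes. Whether the rise of Bmi1 was called as larger in XY than in XX complexes therefore depended on the tool used. Cdkn2a and Cdkn2b, loci that Polycomb is known to repress, were at or under 0.79 CPM in every E11.5 library and were not tested.

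**Figure D1:**
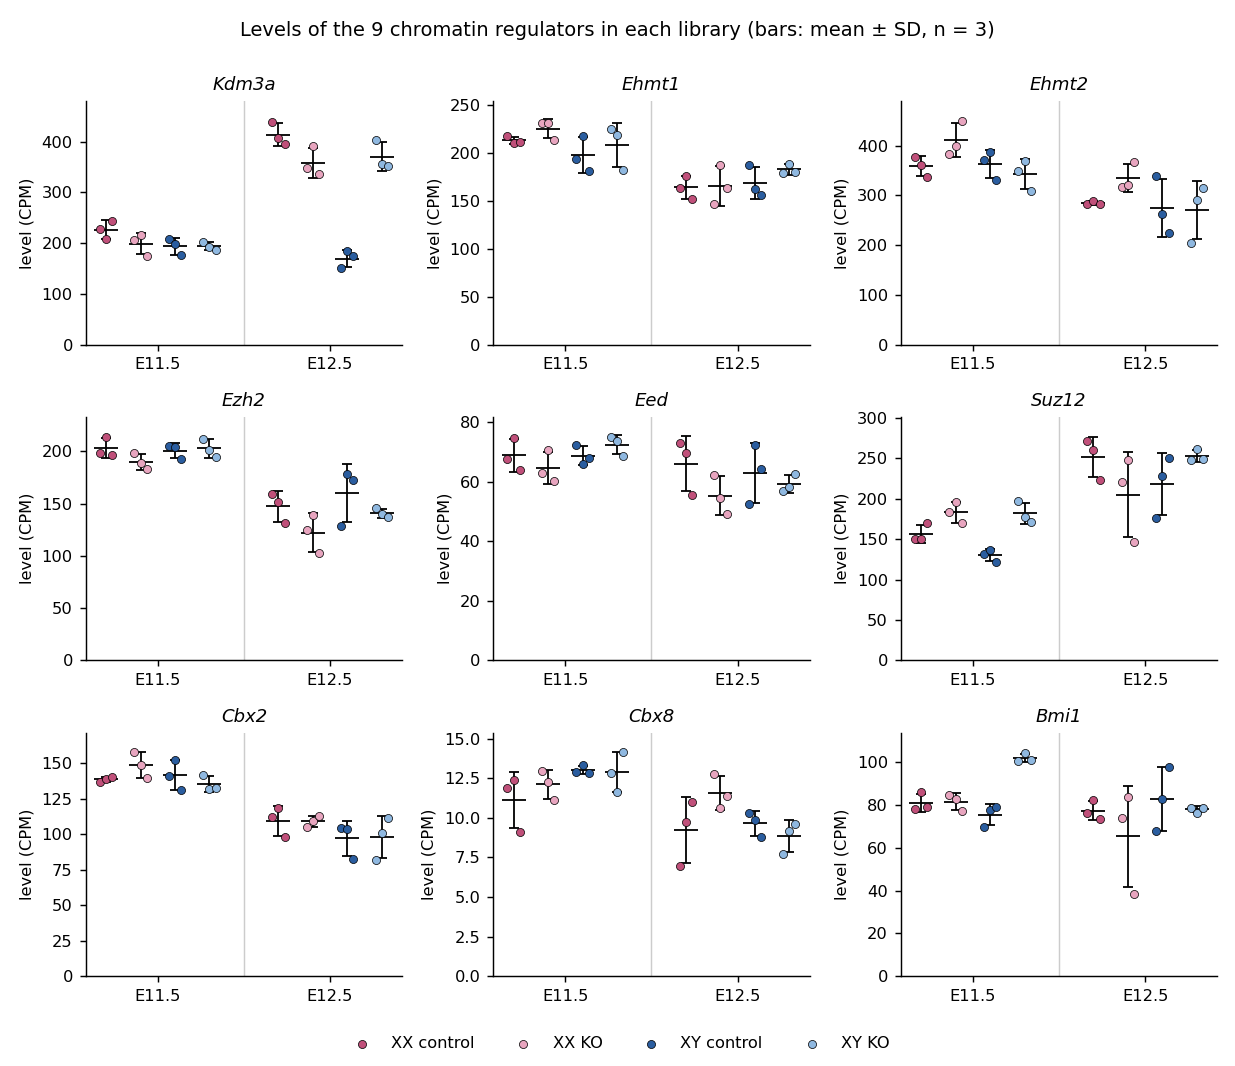
Level of each of the 9 members in every library (CPM, linear axis from 0) by stage and genotype; points are libraries, horizontal marks the means and bars the SD of 3 libraries. XY KO stands highest for Bmi1 and XY control lowest for Suz12 at E11.5, and XY control stands apart for Kdm3a at E12.5.

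In bulk samples, fewer cells of a type and less RNA per cell cannot be told apart, and several marker lists held calls in the E11.5 comparison. The summed level of 6 Sertoli markers was 80.8 to 195.3 CPM in XY controls and 29.3 to 39.2 CPM in XY KO complexes, where 6 of 6 were called lower. The 7 germ cell markers summed to 66.8 to 122.1 CPM and 54.3 to 81.4 CPM, with 0 of 7 called, and the 6 macrophage markers to 94.9 to 128.6 CPM and 70.4 to 94.9 CPM, with 1 of 6 called lower. The 6 markers of mesonephric tubules and duct, a tissue taken along at this stage, summed to 106.3 to 183.6 CPM and 102.1 to 117.3 CPM, with 1 of 6 called lower. The 8 proliferation markers overlapped, at 1802 to 2064 CPM in XY controls and 1835 to 2205 CPM in XY KO complexes, with 0 of 8 called. The fetal Leydig markers summed to 25.5 to 32.1 CPM in XY controls and 13.4 to 18.1 CPM in XY KO complexes, without overlap, with 1 of 3 tested called lower. Of 6 gonadal somatic markers 1 was called higher and 2 lower, and of 6 pre-granulosa markers 2 were called higher and 1 lower. No defining marker of these lists was at 0 in every library of either genotype, and their part in the rise of Suz12 and Bmi1 was not tested.

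At E12.5 neither gene kept a difference that was called. Suz12 was at 176.2, 228.2 and 250.2 CPM in XY controls and at 247.5, 261.3 and 249.2 CPM in XY KO gonads (log2 fold change 0.21, SE 0.18, edgeR FDR = 0.459), and its libraries overlapped. Bmi1 was at 67.8, 82.6 and 97.8 CPM in XY controls and at 78.8, 76.3 and 78.7 CPM in XY KO gonads (−0.08, SE 0.22, edgeR FDR = 0.842). The XY KO libraries sat inside the range of the controls. XX KO replicate 3 was low for both, at 146.4 CPM for Suz12 and 38.5 CPM for Bmi1, beside 221.3 and 247.5 CPM and 74.0 and 83.5 CPM in the other XX KO libraries. The standard errors of 0.18 and 0.22 at this stage stood beside 0.091 and 0.081 at E11.5, so a rise of the E11.5 size would be harder to detect.

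Kdm3a (chr6:71588972-71632990, minus strand), the demethylase that opens the Sry locus, was the only member called at E12.5, and it was lower in XY control gonads than in the other 3 genotypes. Its XY control libraries were at 151.2, 184.0 and 173.9 CPM. XX control libraries were at 438.4, 407.0 and 395.4 CPM, XX KO libraries at 347.6, 392.2 and 335.7 CPM, and XY KO libraries at 403.3, 355.7 and 351.9 CPM. The XY control libraries lay below all 9 others with a wide gap, and XY KO gonads stood among the XX gonads. Libraries of XY KO and XY control gonads did not overlap for 39.1% of all genes, and those of the controls for 36.6%.

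The means in order were 413.6 ± 22.2 CPM in XX control, 370.3 ± 28.6 CPM in XY KO, 358.5 ± 29.8 CPM in XX KO and 169.7 ± 16.8 CPM in XY control gonads. XY KO exceeded XY control gonads by a log2 fold change of 1.13 (SE 0.12, edgeR FDR = 7.79e-06, 2.18-fold, higher in 3 of 3 libraries), in a comparison that called 20.6% of all genes and 1 of 9 members. XX control exceeded XY control gonads by 1.29 (SE 0.12, edgeR FDR = 1.74e-06, 2.44-fold), with 23.8% of genes called. The KO log2 fold change was higher in XY than in XX gonads by 1.33 (SE 0.17, edgeR FDR = 7.69e-05), a test that called 12.9% of genes. These 3 comparisons share the XY control libraries.

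Among the upper 3 genotypes, XX KO was not told apart from XX control or from XY KO gonads by the test, and XX control was not tested against XY KO gonads. XX KO gonads differed from XX control gonads by −0.21 (SE 0.12, edgeR FDR = 0.302), with libraries that just missed each other, at 335.7 to 392.2 CPM and 395.4 to 438.4 CPM. The libraries of 23.5% of all genes did not overlap there. XX KO and XY KO gonads differed by −0.05 (SE 0.12, edgeR FDR = 0.838), and their libraries overlapped. The comparisons called 5.26% and 0.153% of genes. Without XX KO replicate 2 they called 1670 genes instead of 755 and 1828 instead of 22, and still 0 of 9 members. An exact permutation test of 3 libraries against 3 cannot give a p below 0.1.

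At E11.5 Kdm3a showed no such split. XX control libraries were at 227.8, 207.3 and 244.1 CPM, XY control at 207.4, 197.5 and 176.0 CPM, XX KO at 205.4, 216.4 and 175.6 CPM, and XY KO at 202.4, 191.5 and 186.7 CPM. XX control and XY KO libraries did not overlap, and the other pairs of genotypes did. XY KO and XY control complexes differed by −0.00049 on the log2 scale (SE 0.10, edgeR FDR = 0.999), and XX and XY controls by 0.23 (SE 0.10, edgeR FDR = 0.257). The XY difference of Kdm3a was thus near 0 at E11.5, in RNA that includes the mesonephros. A link between Kdm3a and Sry was not tested.

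Sry itself was at 3.77, 4.65 and 4.70 CPM in XY controls and at 1.19, 0.51 and 1.59 CPM in XY KO complexes at E11.5, lower by a log2 fold change of −1.99 (SE 0.37, edgeR FDR = 0.00460). At E12.5 the order was the other way, with 0.00, 0.22 and 0.35 CPM in XY controls and 2.22, 3.17 and 2.57 CPM in XY KO gonads. The log2 fold change of Sry there was 3.99 (SE 0.64, edgeR FDR = 0.00126). Kdm3a and Sry were thus both higher in XY KO than in XY control gonads at E12.5, while at E11.5 Sry was lower and Kdm3a overlapped. Sox9, the target of Sry, was at 117.2 to 143.1 CPM in XY controls and 9.12 to 21.3 CPM in XY KO gonads at E12.5. Foxl2, a marker of the ovarian supporting cell, was at 0.61 to 1.65 CPM and 19.8 to 40.3 CPM in the same libraries.

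**Figure D2:**
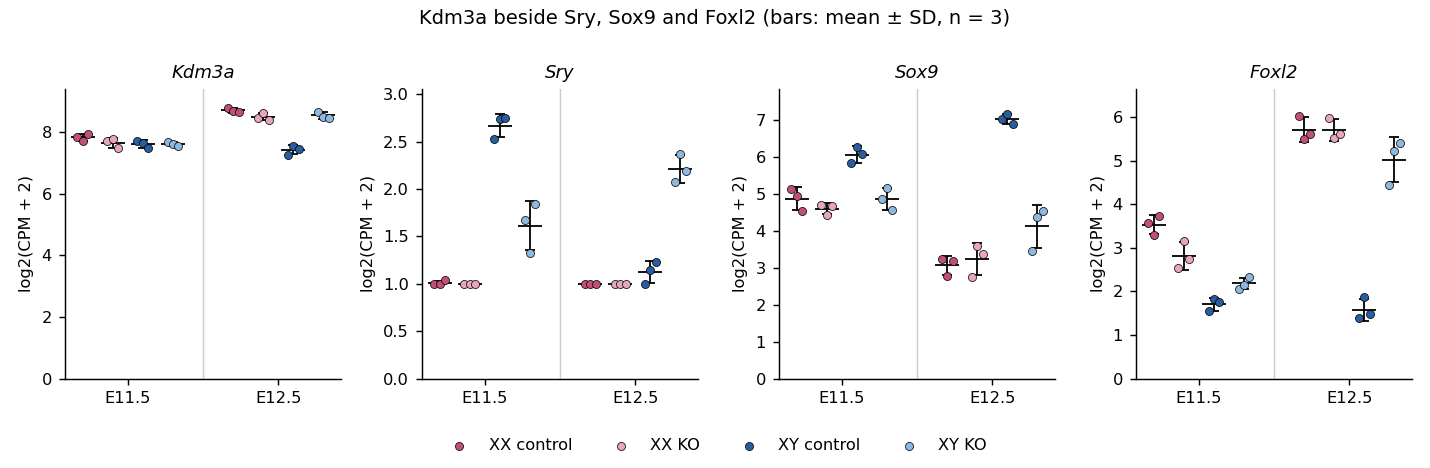
Kdm3a beside Sry, Sox9 and Foxl2 in every library, as log2(CPM + 2) by stage and genotype; points are libraries, marks the means and bars the SD of 3 libraries, and a level of 0 CPM lies at 1. At E12.5 Kdm3a and Foxl2 are lowest and Sox9 highest in XY control gonads, whereas at E11.5 the Kdm3a libraries of XY KO and XY control complexes overlap.

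Of the marker lists of other cells, some split the E12.5 gonads in the way that Kdm3a did and some did not. The 6 Sertoli markers summed to 1228 to 1853 CPM in XY controls and to 10.8 to 37.7 CPM in all other libraries, and the 5 fetal Leydig markers to 821.9 to 1766 CPM and 31.3 to 53.9 CPM. The 6 pre-granulosa markers, of the ovarian supporting lineage, summed to 78.2 to 105.4 CPM in XY controls, 545.2 to 585.6 CPM in XY KO, 667.6 to 918.3 CPM in XX control and 676.2 to 977.4 CPM in XX KO gonads. All 6 Sertoli and all 5 Leydig markers were called lower in XY KO than in XY control gonads, and all 6 pre-granulosa markers higher. The 8 proliferation markers summed to 2619 to 3022 CPM in XY controls and to 1678 to 2372 CPM in all other libraries. XY KO gonads were at 2071 to 2143 CPM, with 5 of 8 called lower. The 6 gonadal somatic markers split likewise, at 1427 to 1627 CPM in XY controls and 1797 to 2088 CPM in all other libraries, with 4 called higher and 1 lower in XY KO gonads. Endothelial sums overlapped between controls, at 495.4 to 616.7 CPM in XY and 508.3 to 580.1 CPM in XX gonads. XY KO gonads were at 670.9 to 765.3 CPM, with 2 of 6 markers called higher. Of 6 mesonephric markers 4 were called higher and 1 lower. Their sums overlapped, at 29.3 to 35.7 CPM in XY controls and 30.2 to 51.4 CPM in XY KO gonads. Germ cell sums overlapped between controls, at 810.2 to 1101 CPM in XY and 790.4 to 1483 CPM in XX gonads. XY KO gonads were at 624.7 to 772.4 CPM, with 2 of 7 markers called lower. Macrophage sums were 42.5 to 48.5 CPM in XY controls, below XY KO (60.1 to 62.7 CPM) and XX control gonads (51.5 to 59.0 CPM). They overlapped with XX KO gonads (40.3 to 72.2 CPM), and 1 of 6 markers was called higher in XY KO gonads. Erythroid sums overlapped between the controls. In XY KO gonads they lay just below XY controls, at 1216.7 to 1513.9 CPM against 1514.8 to 2433.8 CPM, with 0 of 5 tested markers called higher and 0 lower. The part of these cells in the level of Kdm3a was not tested. The genes most like Kdm3a over the 12 libraries were Wt1os (Pearson r = 0.984 of log2(CPM + 2)), whose exons lie opposite Wt1, and Tnfrsf19 (r = 0.983), a description in which all 12 points share the same libraries. A gene that is likewise far lower in XY control gonads than in the others reaches a high r for that reason alone.

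The H3K9 methyltransferases Ehmt1 and Ehmt2 were called in no comparison at either stage. Ehmt2 was the member with the highest level per length in all 4 genotypes at E11.5, at 62.3 to 74.8 CPM per kilobase of exon as genotype means, and Ehmt1 was at 24.4 to 27.8 CPM per kilobase. At E11.5 Ehmt2 libraries of XX KO complexes were at 383.8, 398.8 and 449.4 CPM and those of XX controls at 376.9, 361.6 and 336.5 CPM. The KO libraries lay above, with a difference of 0.20 (SE 0.10, edgeR FDR = 0.380), beside 24.6% of all genes without overlap. At E12.5 the same comparison gave 315.7, 320.6 and 367.5 CPM against 282.0, 289.4 and 283.1 CPM, again with no overlap (0.23, SE 0.17, edgeR FDR = 0.418), beside 23.5% of all genes without overlap.

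In XY gonads Ehmt2 moved little, by −0.09 (SE 0.10, edgeR FDR = 0.607) at E11.5 and −0.03 (SE 0.17, edgeR FDR = 0.942) at E12.5. At E12.5 it spread widely within a genotype, from 223.8 to 339.0 CPM in XY controls and from 205.1 to 314.9 CPM in XY KO gonads. Ehmt1, with a miR-17 and a miR-18 match in its 3′ UTR, was at 181.0 to 217.9 CPM in XY control and 182.3 to 224.5 CPM in XY KO complexes at E11.5 (0.08, SE 0.097, edgeR FDR = 0.634). Its E12.5 difference was 0.12 (SE 0.12, edgeR FDR = 0.560). The H3K9 demethylase thus changed at E12.5 in a stage and comparison where neither methyltransferase was called, and the ratio between them was not tested.

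The other PRC2 members, Ezh2 and Eed, followed no genotype. At E11.5 Ezh2 lay between 183.0 and 214.3 CPM in all 12 libraries, and Eed between 60.3 and 75.1 CPM. XY KO and XY control complexes differed by 0.01 for Ezh2 (SE 0.080, edgeR FDR = 0.925) and by 0.08 for Eed (SE 0.091, edgeR FDR = 0.611), beside the 0.48 of Suz12 in the same libraries. The 3 core subunits of PRC2 therefore did not share the E11.5 call, and no test between genes was made. At E12.5 the widest difference of either was the −0.27 of Ezh2 in XX KO against XX control gonads (SE 0.15, edgeR FDR = 0.280), with 102.4 to 139.3 CPM against 131.3 to 159.4 CPM. XY control replicate 1 was the lowest of its group at E12.5 in Ezh2, Eed, Suz12 and Bmi1 alike. Of exonic bases, 2.61% of Ezh2 and 6.82% of Eed are shared with a gene on the other strand.

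Of the PRC1 members, Cbx2 and Cbx8 lie side by side on chromosome 11, at chr11:119022962-119031270 on the plus strand and chr11:119036305-119040969 on the minus strand. Cbx8 was the lowest member at both stages, at genotype means of 3.03 to 3.54 CPM per kilobase at E11.5 and 2.41 to 3.15 at E12.5, against 31.8 to 35.0 and 22.8 to 25.7 CPM per kilobase for Cbx2. Cbx2, the gene known for sex reversal, was at 131.4 to 152.4 CPM in XY controls and 131.8 to 141.9 CPM in XY KO complexes at E11.5, a difference of −0.07 (SE 0.083, edgeR FDR = 0.636). At E12.5 its XY difference was 0.01 (SE 0.14, edgeR FDR = 0.958). Neither stage showed a difference of Cbx2 beyond the spread between libraries.

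Cbx8, with a miR-17 match in its 3′ UTR, was at 12.8 to 13.3 CPM in XY controls and 11.6 to 14.2 CPM in XY KO complexes at E11.5 (−0.01, SE 0.14, edgeR FDR = 0.959). Its widest difference at E12.5 was between the KO genotypes, with 12.8, 10.6 and 11.4 CPM in XX KO and 7.72, 9.18 and 9.64 CPM in XY KO gonads. These libraries did not overlap, as in 20.1% of all genes, and the difference of 0.38 (SE 0.18) was not called (edgeR FDR = 0.268).

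**Figure D3:**
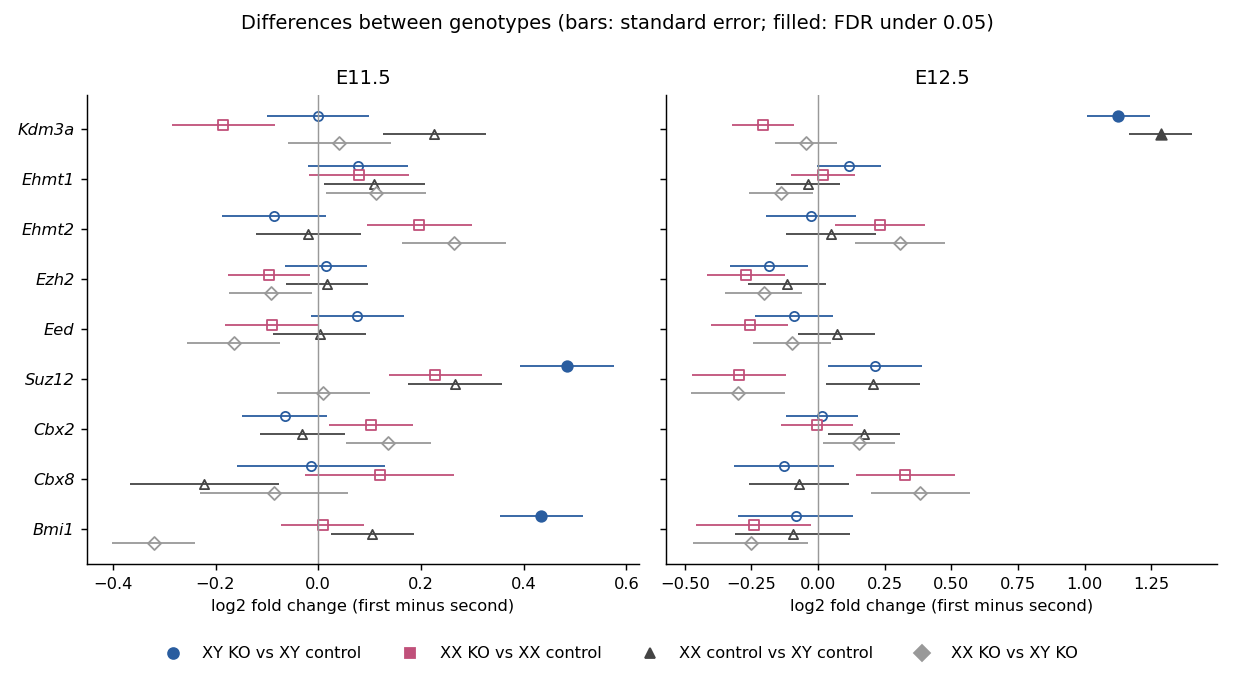
Log2 fold change of each member in 4 comparisons at E11.5 and E12.5, with bars of 1 standard error; filled symbols have an FDR under 0.05. Suz12 at 0.48 and Bmi1 at 0.43 are filled at E11.5 and Kdm3a at 1.13 and 1.29 at E12.5, and the axes of the 2 stages differ in range.

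Across the 9 members edgeR called 2 in XY KO against XY control at E11.5, and 1, Kdm3a, in XY KO against XY control, XX against XY control and the interaction at E12.5. In the other comparisons it called 0 of 9. At an unadjusted p under 0.05 these held at E11.5 1 member in XX KO against XX control (15.7% of all genes), 2 in XX against XY control (17.9%), 2 in XX KO against XY KO (16.1%) and 1 in the interaction (12.8%), and at E12.5 they held 0 in XX KO against XX control (23.6%) and 0 in XX KO against XY KO (19.2%). DESeq2 called 1 member, Bmi1, in XX KO against XY KO (2.31% of all genes) and in the interaction (1.17%) at E11.5. It called 0 in the other 4 (0.46% to 10.1% of all genes). The 8 members other than Kdm3a had E12.5 differences of −0.18 to 0.21 in XY KO against XY control gonads, with a median SE of 0.16. With 3 libraries a genotype, a member that was not called may still differ by several times its SE. Bmi1 in XX KO against XY KO at E11.5, at −0.32 (SE 0.081), was not called by edgeR. Over the 12 libraries of a stage the highest pairwise correlation was between Suz12 and Bmi1 at E12.5 (Pearson r = 0.850) and between Ezh2 and Eed at E11.5 (r = 0.692). At E12.5 the 6 pairs among Ezh2, Eed, Suz12 and Bmi1 all lay between 0.603 and 0.850, and Ehmt2 went with Cbx2 (r = 0.809) and against Ezh2 (r = −0.703). These values include the differences between genotypes and the low libraries named above. They were not set beside pairs of other genes. The genes most like Suz12 at E11.5 were Tbc1d32 (r = 0.957) and Tsr1 (r = 0.950), and a gene most like Bmi1 was Tmem168 (r = 0.953).

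The wider machinery held 61 further genes of PRC2, PRC1, H3K27 and H3K9 enzymes, HP1 proteins and Polycomb target loci, of which 56 were tested at E11.5 and 58 at E12.5. In XY KO against XY control complexes at E11.5, 5 were called higher and 3 lower, 14.3% beside 12.7% of all genes, with a median of −0.06. The PRC1 genes were called both ways. Phc3, a polyhomeotic subunit, rose from 61.2 to 88.6 CPM (0.54, SE 0.10, edgeR FDR = 0.00404), and Rnf2, the ubiquitin ligase (RING1B) that Bmi1 partners, from 131.9 to 175.6 CPM (0.41, SE 0.088, edgeR FDR = 0.00752). Cbx7, which reads the Polycomb mark, fell from 9.34 to 4.87 CPM (−0.94, SE 0.26, edgeR FDR = 0.0304), and Auts2, a partner of other PRC1 forms, from 78.5 to 58.3 CPM (−0.43, SE 0.11, edgeR FDR = 0.0171).

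Rbbp7, a histone-binding partner of PRC2, rose from 340.7 to 448.8 CPM (0.40, SE 0.10, edgeR FDR = 0.0204), and Kdm6b, an H3K27 demethylase, fell from 212.0 to 156.1 CPM (−0.44, SE 0.10, edgeR FDR = 0.0123). The calls of Phc3 and Rnf2 held when each of the 12 libraries was left out in turn. Those of Rbbp7 (XY control 1, XY KO 1 and 2), Cbx7 (XY control 1 and 3, XY KO 1 and 2), Auts2 (XY KO 3) and Kdm6b (XY KO 2 and 3) were lost without a replicate named in brackets. Cbx3, an HP1 gene also called higher there, lost its call without any of 4 of the 12 libraries and is named to complete the list. None of the 10 further H3K9 methyltransferase genes and none of the 9 further H3K9 demethylase genes tested was called.

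In XX KO against XX control complexes 2 of these genes were called, Phc3 (57.2 to 94.6 CPM, 0.73, SE 0.10, edgeR FDR = 0.00124) and the chromobox gene Cbx6 (107.9 to 168.1 CPM, 0.64, SE 0.092, edgeR FDR = 0.00143). Both were also called in XY KO complexes, where Cbx6 rose by 0.33 (SE 0.092, edgeR FDR = 0.0282) and lost its call without XY control 3, XY KO 1 or XY KO 3. They were the genes of the wider machinery higher in KO of both sexes at E11.5. The comparisons share no library but do share the fit and its estimate of the spread. Between controls, the X-linked H3K27 demethylase gene Kdm6a was higher in XX complexes (118.2 against 69.5 CPM, 0.77, SE 0.10, edgeR FDR = 8.88e-04), and its Y-linked relative Uty was called lower, as it was between the KO genotypes.

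At E12.5, XY KO against XY control gonads gave 5 higher and 3 lower of the 58 genes, 13.8% beside 20.6% of all genes. Phf19, a PRC2 accessory protein, was at 18.6, 17.3 and 12.9 CPM in XY controls and at 33.1, 42.4 and 35.5 CPM in XY KO gonads (1.18, SE 0.27, edgeR FDR = 0.00604). Scmh1, a PRC1-associated protein, was at 58.9, 48.5 and 45.4 CPM and 96.9, 91.1 and 100.7 CPM (0.92, SE 0.13, edgeR FDR = 1.06e-04). Neither gene's libraries overlapped, as in 39.1% of all genes. Both genes were higher in XX controls too, Phf19 at 65.1 CPM (1.99 above XY control, SE 0.27, edgeR FDR = 8.07e-05) and Scmh1 at 103.1 CPM. The KO log2 fold change was higher in XY than in XX gonads by 1.82 for Phf19 (SE 0.37, edgeR FDR = 0.00445) and by 0.85 for Scmh1 (SE 0.18, edgeR FDR = 0.00477), the latter named after its values were seen. In XX gonads the KO value of Phf19 was −0.65 and was not called. Like Kdm3a, Phf19 and Scmh1 were lowest in XY control gonads, and their comparisons share the XY control libraries with it.

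Lef1, a Wnt effector listed here as a Polycomb target locus, was at 34.6 CPM in XY control, 54.9 CPM in XY KO and 93.1 CPM in XX control gonads. XX controls exceeded XY controls by 1.42 (SE 0.16, edgeR FDR = 1.19e-05) and the KO effect differed between the sexes by 1.15 (SE 0.22, edgeR FDR = 0.00270). Pcgf5, a paralogue of Bmi1 in other PRC1 forms, was at 24.1 CPM in XX control and 10.03 CPM in XY control gonads (1.27, SE 0.27, edgeR FDR = 0.00295). Its interaction of 1.26 (SE 0.38, edgeR FDR = 0.0414) was lost without any of 8 of the 12 libraries, namely XX control 1 and 2, each XY control and each XY KO replicate. Kdm7a and Phf8, which encode related demethylases of H3K9, went the other way from Kdm3a. Kdm7a fell from 121.1 to 71.3 CPM (−0.76, SE 0.20, edgeR FDR = 0.0118) and Phf8 from 140.1 to 93.1 CPM (−0.59, SE 0.14, edgeR FDR = 0.00829) in XY KO gonads. XX controls were lower than XY controls by −0.75 for Kdm7a (SE 0.20, edgeR FDR = 0.0113) and −0.47 for Phf8 (SE 0.14, edgeR FDR = 0.0266).

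The XY KO gonads at E12.5 thus had calls in 3 of 11 H3K9 demethylase genes tested, Kdm3a higher and Kdm7a and Phf8 lower, and in 0 of 12 H3K9 methyltransferase genes, beside 20.6% of all genes. Cbx6 rose in XY KO gonads from 106.3 to 172.5 CPM (0.70, SE 0.19, edgeR FDR = 0.0171) and Phc1, another polyhomeotic subunit, fell from 156.6 to 125.0 CPM (−0.32, SE 0.11, edgeR FDR = 0.0492). In XX KO gonads Cbx6 rose from 119.3 to 200.2 CPM (0.75, SE 0.19, edgeR FDR = 0.0370) and Jarid2, which recruits PRC2, fell from 264.6 to 193.8 CPM (−0.45, SE 0.12, edgeR FDR = 0.0391).

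Some of these E12.5 calls were lost when libraries were left out 1 at a time. In XY KO against XY control gonads they were Kdm7a (XY control 3, XY KO 3), Cbx6 (XY control 2 and 3, XY KO 2) and Phc1 (8 of the 12 libraries: XX control 1, XX KO 1, each XY control and each XY KO), while Phf19, Scmh1, Phf8 and Lef1 kept theirs. The remaining gene called higher there, Ezh1 of PRC2, lost its call without any of 6 of the 12 libraries and is named to complete the list. Between controls, Kdm7a lost its call without XY control 3 and Phf8 without XX control 1 or 3 or XY control 2 or 3. In XX KO against XX control gonads Cbx6 lost it without XX control 1 or 2, XX KO 1 or 3 or XY KO 2, and Jarid2 without any of 7, which are those 5 with XY control 2 and XY KO 3. That comparison called 35 genes without XX control 1 and 1670 without XX KO 2, against 755 with all libraries.

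**Figure D4:**
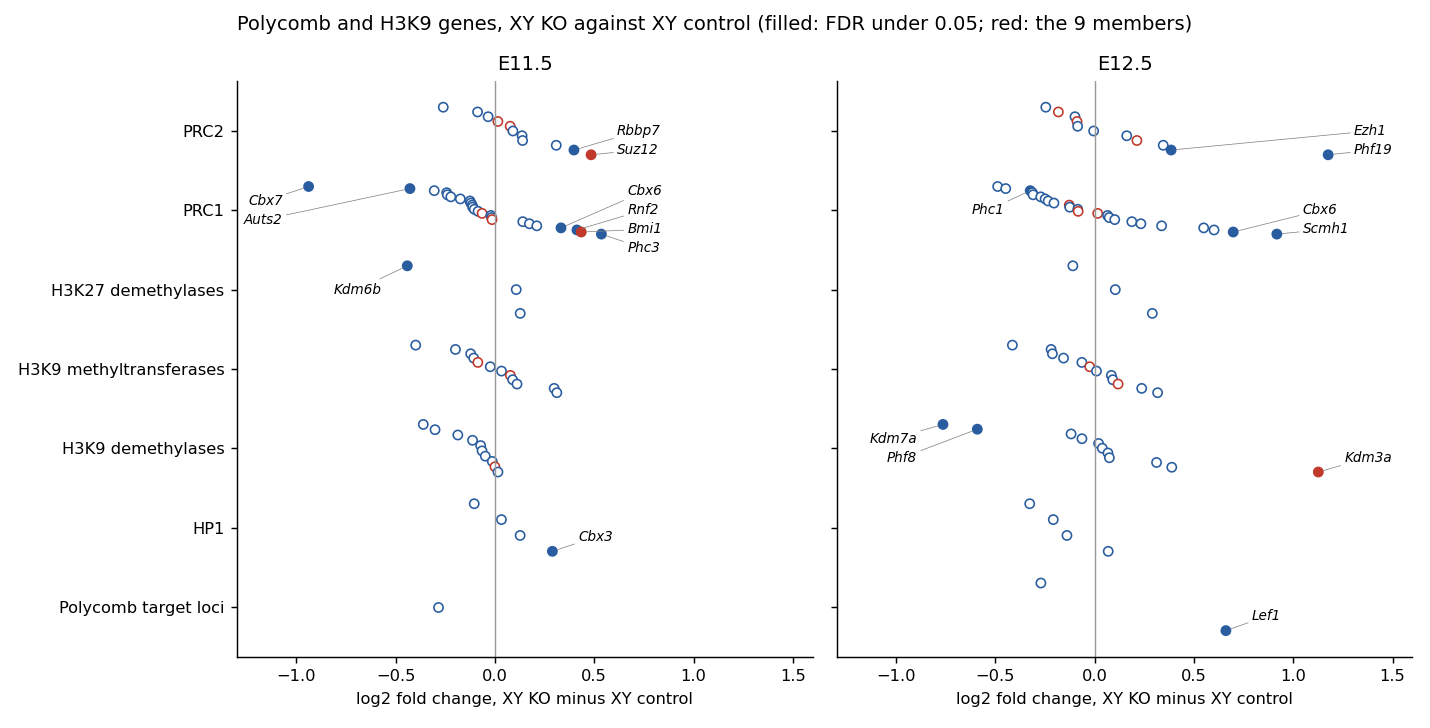
Log2 fold change of XY KO against XY control for each tested gene of the 7 lists, 9 members included, at E11.5 and E12.5; filled points have an FDR under 0.05 and are named, and red points are the 9 members. Suz12 and Bmi1 stand at 0.48 and 0.43 at E11.5, and Kdm3a at 1.13 and Phf19 at 1.18 are the largest called increases at E12.5.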

How the data were processed

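Bulk RNA-seq of mouse embryonic gonads covered 4 genotypes and 2 stages, with 3 libraries of each (24 libraries used). Per the labels and the study's methods, the authors mapped read pairs to mm10, counted them per gene with align and featureCounts of R subread and deposited raw whole-number counts. The annotation, strand setting and multimapping rule are not given in the sources used here. Another 12 columns, of Foxl2 3′ UTR mutants, were left out because their names map to no single sample.

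The 12 libraries of a stage went into 1 edgeR model with genotype means (edgeR 4.0.16, R 4.3.3, limma 3.58.1), on genes with at least 1 CPM in at least 2 libraries, with TMM factors and robust quasi-likelihood tests. The study names edgeR, this filter and the FDR of 0.05. The SE was taken from the log2 fold change and the F statistic. The code was tested on simulated data. DESeq2 1.42.0, other scalings and filters, a replicate block, fits of the 2 genotypes alone and leaving out each library were alternatives. The printed errors do not separate counting error from the spread between libraries. Replicates differed by more than sampling noise in all 24 pairs and were kept apart.

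Named genes are the 9 members; Sry, Sox9, Foxl2 and Mir17hg; up to 3 called increases and 3 decreases without overlap per comparison from the wider lists; and the 2 genes most like each called member, of which 1 is not reported here. Cbx3 at E11.5 and Ezh1 at E12.5 were named beside these to complete the calls in XY KO against XY control. The members and lists were chosen with earlier results of these data known. 3′ UTRs and coordinates come from the GENCODE annotation of GRCm38, and levels per kilobase use the union of exons.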

Additional observations from a re-analysis of the deposited data

Results flagged for a closer look

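The following results were singled out because the KO effect differed between XY and XX gonads at E12.5 in the interaction test of edgeR. Positive values mark a KO log2 fold change that was higher in XY than in XX gonads. They were 1.33 for Kdm3a, 1.82 for Phf19, 1.26 for Pcgf5, 0.853 for Scmh1 and 1.15 for Lef1. Such a value can join a rise in XY with a fall in XX gonads. Kdm3a was at 1.13 in XY and −0.21 in XX gonads, and Phf19 at 1.18 and −0.65. Neither XX value was called. The interaction test called 12.9% of all genes at that stage. When each of the 12 libraries was left out in turn, Kdm3a, Phf19, Scmh1 and Lef1 kept the call in 12 of 12 fits and Pcgf5 in 4 of 12.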

How the results depend on the processing

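Over 35 results, 648 of 693 alternative values kept their direction and side of the threshold (counts within 1.5 times), 28 moved, 14 reversed, 3 became called and 0 lost a call. The calls of Suz12 and Bmi1 at E11.5 and of Kdm3a at E12.5 held in every alternative. Their edgeR and DESeq2 FDRs in XY KO against XY control ranged from 2.51e-05 to 0.0247 for Suz12 and from 1.27e-05 to 0.0255 for Bmi1, and the Kdm3a log2 fold change from 1.04 to 1.19. Members called between controls at E11.5 numbered 0 to 1 when libraries were left out in turn (1, Suz12, without XY control 2). DESeq2 called 1 member, Bmi1, in XX KO against XY KO (2.31% of all genes) and 1 in the interaction (1.17%) at E11.5. Differences near 0 changed sign. Bmi1 in XX KO against XX control at E11.5 went from 0.01 to −0.040 with library size as the only scaling, to −0.0016 with 1 CPM in at least 3 libraries, and ranged from −0.021 to 0.053 when libraries were left out. Suz12 in XX KO against XY KO at E11.5 went from 0.01 to −0.027 with library size, to −0.00095 with only the 2 genotypes, and from −0.041 to 0.069 without a library. Kdm3a in XX KO against XY KO at E12.5 ranged from −0.12 to 0.03. The cause was not tested.

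Genes called of the wider lists ranged over all alternatives from 3 to 13 (8 with all libraries) in XY KO against XY control at E11.5 and from 5 to 11 (8) at E12.5, and in XX KO against XX control at E12.5 from 0 to 9 (2). Between controls they ranged from 2 to 11 (2) at E11.5, with 11 without XY control 2, and from 6 to 12 (11) at E12.5, with 6 without XY control 3. Between the KO genotypes they ranged from 1 to 5 (1) at E11.5 and from 1 to 9 (1) at E12.5, with 9 without XX KO 2. With the replicate number as a block, the count in XX KO against XX control at E12.5 was 1, and the members called did not change in any comparison. Same-numbered libraries deviated from their group means with correlations of −0.304 to 0.450 at E11.5 and −0.507 to 0.388 at E12.5 (medians 0.029 and −0.061). Differently numbered libraries gave −0.385 to 0.383 and −0.477 to 0.510 (medians −0.020 and −0.016). These ranges largely overlap, and the numbers were treated as names. A litter or batch shared by some libraries was not tested. All genes called with libraries left out in turn ranged from 814 to 2891 (1804) in XY KO against XY control at E11.5 and from 56 to 2495 (126) between controls.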
